A study of Mus musculus with 15 samples.

Results

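A set of 8 genes at the head of growth signalling was followed across 4 p53-null mammary tumour models of the mouse. They are Myc, Mycn and Mycl, the Ras genes Hras and Nras, the Raf kinase gene Braf, the PI3K subunit gene Pik3ca, and Nf1. They were chosen by name, all 8 were found among the 17271 genes of the deposited table, and none has a value shared between samples. RNA-seq had been made from 15 samples of mammary tumours of BALB/c mice, every one labelled p53-null and grown in vivo, with no further allele in the labels. There were 4 samples of the model 2151R, 8 of 2208L, 2 of 2225L and a single one of T11. The labels give no age and name no drug. In 2151R, replicates 3 and 4 are titled NT2 and NT, and replicates 1 and 2 carry other words (for replicate 2, 53ca) whose meaning is not stated. The titles split 2208L into 4 PBS samples (replicates 2 to 5), 3 samples titled 3day nt (replicates 6 to 8) and 1 ROSEN sample (replicate 1). One sample of 2225L has the library prefix CP (replicate 1, also titled T-Vivo) and the other the prefix ROSEN (replicate 2). The labels do not say that the samples of a model came from separate mice, so the spread between them may be technical in part.

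Myc, Mycn and Mycl encode related transcription factors that pair with Max and raise the transcription of genes for ribosome building, metabolism and cell division. Hras and Nras encode small GTPases that, bound to GTP, switch on the Raf, MEK and ERK kinases, of which Braf is the most readily activated Raf, and also PI3K, whose catalytic subunit p110 alpha comes from Pik3ca. Nf1 encodes neurofibromin, which returns Ras to its inactive state. Loss of p53 and excess activity of Myc or PI3K are common in triple negative breast cancer, the cancer that the study's title names.

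The models differed in which of these genes they expressed most. 2151R had the highest Mycl and Nras, and, with T11 inside its range, the highest Pik3ca. 2225L had the highest Mycn and Hras and the lowest Braf and Pik3ca. Nf1 was not called different between any of the replicated models, and Myc differed by less than 1 log2 unit.

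Start regions of 6 of the genes are shown because these genes moved most or sit beside a gene that moved with them. Of the 8 genes, 7 have an entry of 250 bases before and 50 after the start in the RefSeq table for GRCm38.p6, the build that matches the mm10 named in the submitters' processing notes. For each the longest stretch before the start that overlaps no annotated exon of GENCODE M21 is printed, on the gene's own strand. Capitals mark matches on either strand to CACGTG (the E-box bound by Myc and Max), TTTGGCGC or TTTCGCGC (E2F), TGACGTCA (the cyclic AMP response element, CRE), TGANTCA (AP-1), CCGGAAG (ETS), CCAAT and TATAAA.
Mycn, chr12:12941915-12942086, minus strand: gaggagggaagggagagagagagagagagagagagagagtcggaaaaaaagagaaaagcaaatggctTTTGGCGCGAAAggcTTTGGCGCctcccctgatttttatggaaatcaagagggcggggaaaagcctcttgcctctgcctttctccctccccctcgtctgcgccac
Mycl, chr4:122995812-122995930, plus strand: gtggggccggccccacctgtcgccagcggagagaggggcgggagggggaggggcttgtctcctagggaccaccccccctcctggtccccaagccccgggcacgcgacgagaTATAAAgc
Hras, chr7:141194006-141194156, minus strand: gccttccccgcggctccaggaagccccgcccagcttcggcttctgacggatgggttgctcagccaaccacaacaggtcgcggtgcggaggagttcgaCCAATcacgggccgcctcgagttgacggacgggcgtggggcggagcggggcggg
Nras, chr3:103058187-103058284, plus strand: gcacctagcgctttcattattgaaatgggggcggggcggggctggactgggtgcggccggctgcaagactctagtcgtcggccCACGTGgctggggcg
Braf, chr6:39725464-39725713, minus strand: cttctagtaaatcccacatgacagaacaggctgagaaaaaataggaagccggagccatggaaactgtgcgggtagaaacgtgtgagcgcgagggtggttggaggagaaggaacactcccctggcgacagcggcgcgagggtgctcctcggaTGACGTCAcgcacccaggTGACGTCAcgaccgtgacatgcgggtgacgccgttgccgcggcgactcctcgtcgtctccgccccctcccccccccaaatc
Pik3ca, chr3:32396815-32397064, plus strand: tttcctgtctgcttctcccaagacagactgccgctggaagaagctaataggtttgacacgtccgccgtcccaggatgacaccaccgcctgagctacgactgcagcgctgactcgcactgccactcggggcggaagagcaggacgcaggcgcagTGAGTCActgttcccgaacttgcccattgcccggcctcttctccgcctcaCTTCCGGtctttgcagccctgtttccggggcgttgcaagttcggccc
The stretch of Mycn has 3 E2F matches, 2 of which overlap, and 0.833% of 27025 promoters of 300 bases hold at least 1. That of Braf has 2 CRE matches (1.88% of promoters hold 1), and that of Nras has an E-box (7.24%). Pik3ca has an AP-1 match (7.93%) and an ETS match (9.12%), Hras a CCAAT box (37.9%) and Mycl a TATA box (14.2%). The Hras stretch is the whole of the 151 bases between Hras and Lrrc56, which is read in the opposite direction. The Nras stretch is the 98 bases before its start. The shares given are for whole promoters of 300 bases, which are longer than the stretches printed. A match is a description of the letters and not a bound site.

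The values are log2 expression, with each gene centred on a median over a set of samples that is not stated. A value therefore compares samples for 1 gene, and levels of different genes cannot be ranked. The table holds no counts, so depth is unknown. Medians over all genes ran from -0.29 to 0.10 between samples. Means of marker lists differed between models: epithelial markers (9 genes) ran from -3.50 to -2.45 in 2151R, -7.46 in T11, 3.23 and 3.26 in 2225L and 1.14 to 2.28 in 2208L. Macrophage markers (7 genes) ran from 0.82 to 1.16 in 2151R, 1.17 in T11, -1.93 and -0.80 in 2225L, and -0.79 to 0.28 in 2208L. Their part in the differences below was not tested. Since whole tumours were measured, fewer cells of a type and less RNA per cell cannot be told apart. Skeletal muscle markers (6 genes) were high in 3 libraries, at 6.39 in replicate 3 of 2151R and at 8.89 and 9.41 among the 3day nt samples of 2208L (replicates 6 and 8). Library numbers in the titles fall into ranges that follow model and subset, so a difference between models and one between library ranges cannot be told apart.

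**Figure D1:**
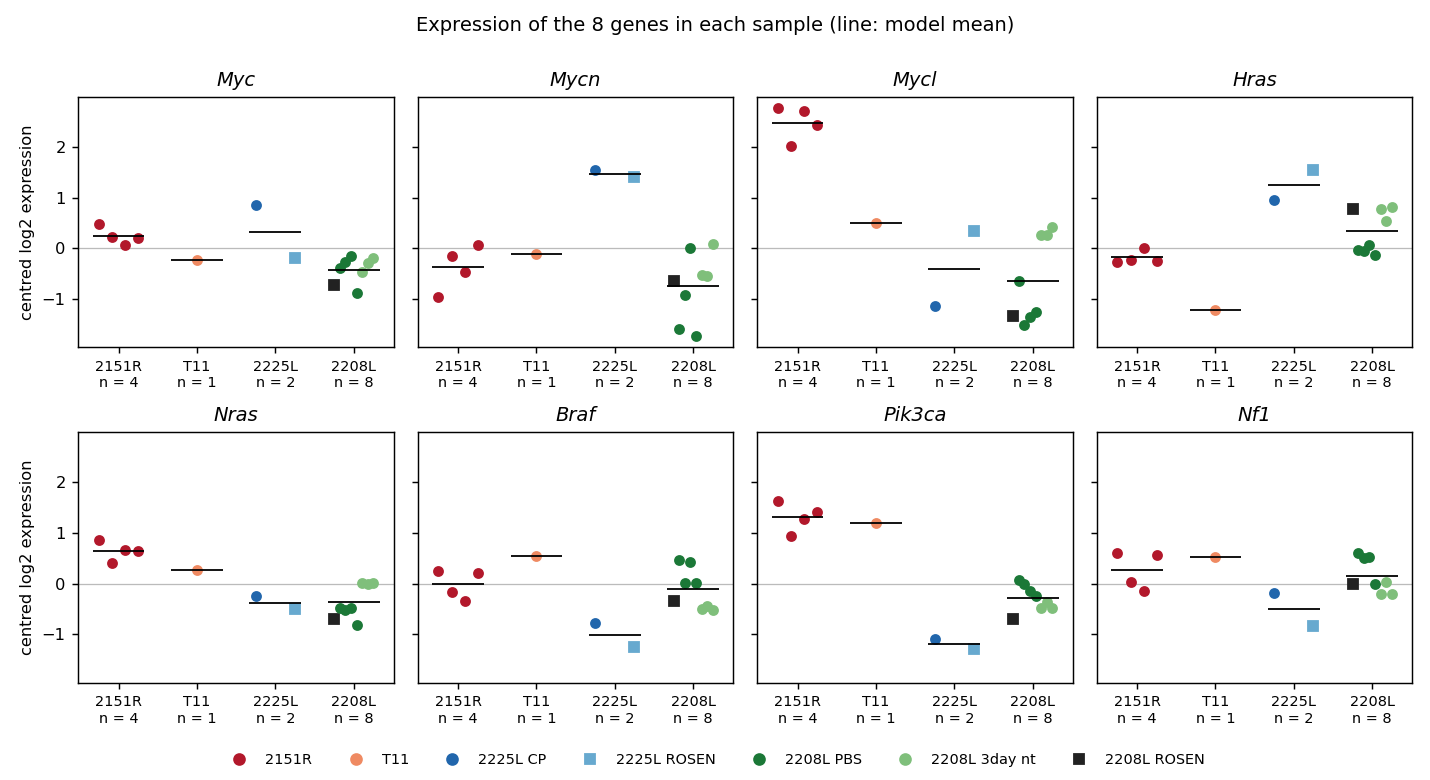
Centred log2 expression (vertical axis) of the 8 genes in each of the 15 samples, by model, with the model mean as a line; squares are libraries with the prefix ROSEN. Mycl of 2151R lies between 2.02 and 2.76, above every other sample, and Mycn of 2225L at 1.55 and 1.40, above every other sample.

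Differences were tested with limma over all 17271 genes with Benjamini-Hochberg adjustment, and a gene is called different at an adjusted p under 0.05. Between 2151R and 2208L, 4 of the 8 genes were called, all of them higher in 2151R, where 48.8% of all genes were called, 26.1% higher and 22.7% lower. With each sample centred on its median, and with quantile normalization, 5 were called, 4 higher and Hras lower. The shares of all genes in this paragraph are for the values as deposited, so counts under other scalings cannot be set beside them. Between 2225L and 2208L, 5 of 8 were called (3 higher, 2 lower) against 32.9% of all genes, and with quantile normalization 2, both higher. Between 2225L and 2151R, 6 of 8 were called (2 higher, 4 lower) against 48.6%. By direction, 22.8% of all genes were higher and 25.8% lower in that comparison, and 15.6% and 17.3% between 2225L and 2208L. The groups did not overlap for 4 of 8 between 2151R and 2208L, all higher, against 38.8% of all genes (20.6% higher, 18.2% lower). Between 2225L and 2208L they did not overlap for 4 (2 higher, 2 lower) against 31.7% (15.7% higher, 16% lower), and between 2225L and 2151R for 7 (2 higher, 5 lower) against 62.4% (28.9% higher, 33.4% lower). The 3 comparisons share samples, so they are not independent of each other. Where a sample of 2225L is left out below, that model keeps 1 sample, which limma assumes to vary like the other models.

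Mycl, the gene of L-Myc, showed the widest range of the 8. Its value was 2.76, 2.02, 2.70 and 2.42 in replicates 1 to 4 of 2151R, and T11 stood at 0.49. The CP sample of 2225L was at -1.14 and its ROSEN sample at 0.33. In 2208L it ran from -1.51 to 0.41 with a median of -0.95. All 4 samples of 2151R lay above all others, while those of 2225L and 2208L overlapped. 2151R averaged 2.48 ± 0.34 (SD, n = 4), while 2208L averaged -0.65 ± 0.84 (SD, n = 8). The gap of 3.12 (SE 0.43, limma adjusted p 5.41e-05) is 8.71-fold on the deposited scale. Mycl was lower in 2225L than in 2151R (difference -2.88, SE 0.61, limma adjusted p 0.00183). 2225L and 2208L were not called different (0.25, SE 0.56, limma adjusted p 0.773), and without the ROSEN sample of 2225L that difference was -0.49.

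Mycn, the gene of N-Myc, was highest in 2225L. Its value was 1.55 in the CP sample and 1.40 in the ROSEN sample, against -0.97, -0.15, -0.47 and 0.07 in 2151R, -0.11 in T11 and -1.73 to 0.09 (median -0.60) in 2208L. Both samples of 2225L lay above the other 13 samples, which overlapped each other. The difference from 2208L was 2.21 (SE 0.43, limma adjusted p 0.00179), 4.62-fold on the deposited scale, and from 2151R 1.85 (SE 0.47, limma adjusted p 0.00598). Neither was called with limma's sample weights (2.20 and 1.71, limma adjusted p 0.135 and 0.172). Between 2151R and 2208L the difference was 0.36 (SE 0.34, limma adjusted p 0.403).

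Myc itself varied less, with an SD over the 15 samples of 0.44 that exceeds that of 25.3% of genes. The 4 samples of 2151R were at 0.47, 0.21, 0.07 and 0.20, above all 8 of 2208L, which ran from -0.88 to -0.15 (median -0.34). The difference was 0.66 (SE 0.20, limma adjusted p 0.0143), or 1.58-fold. It was no longer called without replicate 1 of 2151R (0.58, limma adjusted p 0.0546) or when samples other than NT, 3day nt and PBS were set aside (0.51, limma adjusted p 0.191). In 2225L the samples disagreed, at 0.85 in CP, the highest of the 15, and -0.20 in ROSEN, inside the range of 2208L. The mean difference of 2225L from 2208L (0.75, SE 0.26, limma adjusted p 0.0387) was lost without the CP sample (0.22) and without replicate 1, 2 or 6 of 2208L (limma adjusted p from 0.0508 to 0.0534). It was also lost with sample weights (0.64), without the high-muscle libraries, with these 2 models alone and with the subset of titles just named. T11 was at -0.23.

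The 2 Ras genes moved in opposite directions between 2151R and 2225L. Nras was 0.85, 0.41, 0.66 and 0.63 in 2151R, 0.26 in T11, -0.25 and -0.51 in 2225L, and -0.81 to 0.02 (median -0.49) in 2208L. 2151R lay above every other sample. Its difference from 2208L was 1.01 (SE 0.18, limma adjusted p 0.000503), 2.02-fold, and that of 2225L from 2151R was -1.02 (SE 0.26, limma adjusted p 0.00587). The latter was not called without the ROSEN sample (-0.89, limma adjusted p 0.0555). 2225L and 2208L taken whole did not separate (-0.006, SE 0.24, limma adjusted p 0.988). That mean of 2208L joins subsets that differed. Its 3day nt samples (0.00 to 0.02) lay above both samples of 2225L, its PBS samples ran from -0.81 to -0.49, and its ROSEN sample was at -0.69.

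Hras was highest in 2225L, at 0.95 in CP and 1.54 in ROSEN. It was -0.26, -0.22, 0.01 and -0.25 in 2151R and -0.14 to 0.81 (median 0.30) in 2208L, and lowest of all in T11 (-1.21). 2225L lay above the other models without overlap. Hras was higher in 2225L than in 2151R by 1.43 (SE 0.31, limma adjusted p 0.00225), 2.69-fold, and than in 2208L by 0.91 (SE 0.29, limma adjusted p 0.0274). The call against 2208L was lost without the ROSEN sample (0.61), with sample weights (1.11, limma adjusted p 0.100), with quantile normalization (0.65), with the library prefix as a covariate (0.70) and with a fit of these 2 models only (limma adjusted p 0.0674). 2151R and 2208L overlapped and were not called different (-0.52, SE 0.22, limma adjusted p 0.0672), but were without replicate 5 of 2208L (-0.59, limma adjusted p 0.0386). The Ras genes are close copies of each other, and how reads that match more than 1 gene were assigned is not given in the sources used here.

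Braf was lowest in 2225L, at -0.78 in CP and -1.26 in ROSEN. 2151R was at 0.25, -0.17, -0.35 and 0.22, 2208L ran from -0.51 to 0.46 (median -0.16), and T11 was at 0.54, the highest value. Braf was lower in 2225L than in 2208L (-0.91, SE 0.29, limma adjusted p 0.0281) and than in 2151R (-1.003, SE 0.32, limma adjusted p 0.0190). Both calls were lost without the ROSEN sample (-0.67 and -0.76), with quantile normalization (-0.66 and -0.65) and with sample weights (-1.14 and -1.12). The call against 2208L was also lost with the library prefix as a covariate (-0.78) and with these 2 models only, and that against 2151R with samples titled NT, 3day nt or PBS (-0.95). 2151R and 2208L did not differ beyond their spread (0.09, SE 0.22), and with quantile normalization the sign turned (-0.005).

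Nf1, the brake on Ras, was not called in any of the 3 comparisons. Its values were 0.60, 0.03, -0.15 and 0.56 in 2151R, 0.53 in T11, -0.18 (CP) and -0.83 (ROSEN) in 2225L and -0.20 to 0.61 (median 0.02) in 2208L. The models overlapped, apart from 2225L against 2151R. That difference was -0.77 (SE 0.31, limma adjusted p 0.0565), and it passed the threshold without replicate 3 of 2151R (-0.90, limma adjusted p 0.0363). With the single ROSEN sample as 2225L it was -1.09 (limma adjusted p 0.0339), and with the single CP sample -0.44 (limma adjusted p 0.402). 2225L minus 2208L was -0.66 (SE 0.28, limma adjusted p 0.0901), and -0.78 without the high-muscle libraries (limma adjusted p 0.0490).

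Pik3ca separated the 3 replicated models in order. It was 1.64, 0.95, 1.27 and 1.42 in 2151R and 1.21 in T11, then -0.70 to 0.07 (median -0.30) in 2208L, then -1.09 and -1.29 in 2225L. No 2 of the 3 replicated models overlapped, and T11 fell within 2151R. 2151R was higher than 2208L by 1.61 (SE 0.17, limma adjusted p 4.65e-06), 3.05-fold. 2225L was below 2208L (-0.90, SE 0.22, limma adjusted p 0.00718) and 5.69-fold below 2151R (-2.51, SE 0.24, limma adjusted p 2.49e-06). The difference between 2225L and 2208L was not called without the ROSEN sample (-0.80, limma adjusted p 0.0667), with quantile normalization (-0.57) or with sample weights (-1.05, limma adjusted p 0.0843).

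**Figure D2:**
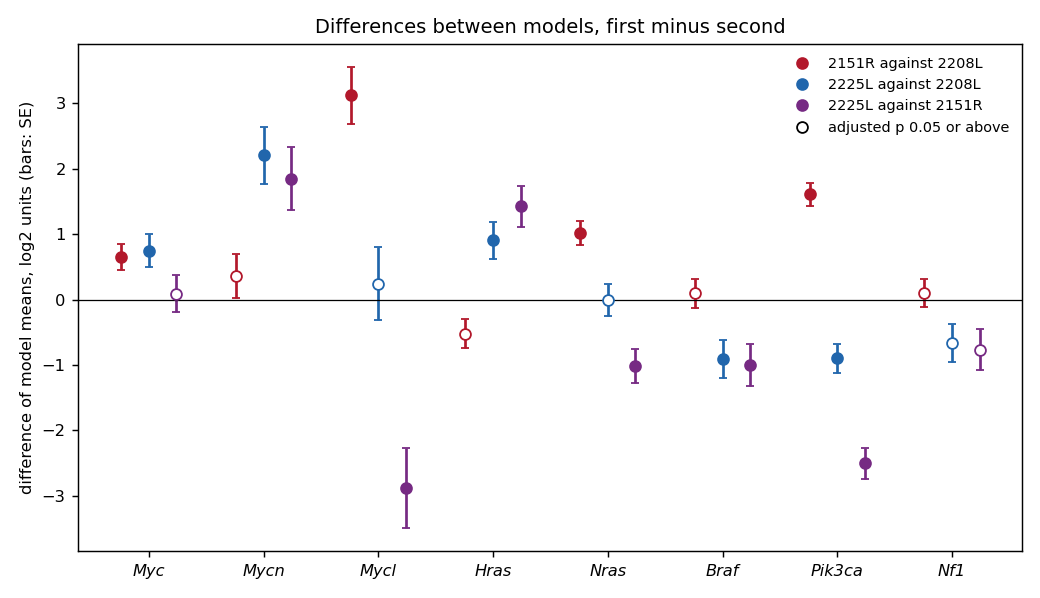
Difference of model means in log2 units (vertical axis) for the 8 genes in the 3 model comparisons, first model minus second, with the SE from limma; open points have an adjusted p of 0.05 or above. Mycl (3.12) and Pik3ca (1.61) are furthest above 0 for 2151R against 2208L, and Mycn (2.21) for 2225L against 2208L.

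The 2 samples of 2225L were set against each other, with no test since each is single. CP minus ROSEN was -1.47 for Mycl and 1.05 for Myc, the 2 of the 8 genes at least 1 log2 unit apart, where 34.1% of all genes were. The other differences were 0.65 (Nf1), -0.59 (Hras), 0.48 (Braf), 0.26 (Nras), 0.20 (Pik3ca) and 0.15 (Mycn). The SD within models over the 15 samples, which includes this pair, was smaller than the gap for 5 of the 8 genes: Mycl (0.76), Myc (0.32), Nf1 (0.36), Hras (0.36) and Braf (0.37). It was larger for Nras (0.29), Pik3ca (0.26) and Mycn (0.58). A difference of 2 samples varies more than a single sample does, so a gap above this SD need not exceed ordinary spread. Over all genes the median absolute gap was 0.68. T cell markers (5 genes) were at -1.54 in CP and 1.12 in ROSEN, and adipocyte markers (5 genes) at -3.77 and 1.39, and their part in these gaps was not tested.

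The single T11 sample resembled 2151R in Pik3ca and not in Mycl or Hras. T11 minus the mean of 2151R was -1.99 for Mycl and -1.03 for Hras, where 25.5% of all genes were at least 1 log2 unit apart. For Pik3ca it was -0.11, and for the other 5 genes from -0.47 (Myc) to 0.55 (Braf). Against the mean of 2208L, Hras was lower by a difference of -1.55, Pik3ca higher by 1.495 and Mycl higher by 1.14, and 38.5% of all genes were at least 1 log2 unit apart. Against the mean of 2225L, 5 of the 8 genes were at least 1 log2 unit apart, from -2.46 (Hras) to 2.39 (Pik3ca), where 51.3% of all genes were. T11 lay outside the range of 2151R for 5 of the 8 (70.7% of all genes) and outside that of 2208L for 5 of the 8 (57.5%). With no replicate, T11 carries no test.

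Within 2208L, 4 of the 8 genes were called between the 4 PBS samples and the 3 samples titled 3day nt, 1 higher in PBS and 3 lower, where 34% of all genes were called (17.4% higher, 16.5% lower). With each sample centred on its median 6 were called, 3 higher and 3 lower, and with quantile normalization 5, 2 higher and 3 lower. The shares of all genes are for the values as deposited, so these other counts cannot be set beside them. Mycl was -0.64, -1.51, -1.36 and -1.26 in PBS and 0.26, 0.27 and 0.41 in 3day nt samples (difference -1.51, SE 0.22, limma adjusted p 0.00552). Hras was lower in PBS (-0.74, SE 0.11, limma adjusted p 0.00648), as was Nras (-0.59, SE 0.12, limma adjusted p 0.0124), and Braf was higher (0.71, SE 0.15, limma adjusted p 0.0153). These 4 genes and Pik3ca (0.36, limma adjusted p 0.0533) did not overlap between the subsets, 2 of them higher and 3 lower in PBS, where 44.8% of all genes did not (21% higher, 23.8% lower). The ROSEN sample of 2208L was with PBS in Mycl (-1.34) and with 3day nt in Hras (0.78). Skeletal muscle markers ran from -4.62 to 1.67 in PBS and from 0.65 to 9.41 in 3day nt samples. Without replicates 6 and 8, which leaves 1 sample of 3day nt assumed to vary like PBS, the differences were -1.46 (Mycl), -0.57 (Hras), -0.58 (Nras) and 0.67 (Braf), and none of the 8 genes was called by limma, with 3 at an unadjusted p under 0.05. Without replicate 8 alone, 2 were called, Mycl and Hras, and without replicate 6 alone Braf was not called (0.71, limma adjusted p 0.0551). Without replicate 5, Pik3ca (0.41) and Nf1 (0.67) were called as well, and without replicate 4 Mycn (-1.08).

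Position in the genome was not used to choose the genes, so each was set beside its 10 nearest measured genes on either side in the RefSeq order of GRCm38.p6. Around Pik3ca (chromosome 3) the median of the 20 was 0.32 for 2151R minus 2208L, with 12 of 20 above 0, and -0.72 for 2225L minus 2208L, with 4 of 20 above 0, where the medians of all genes were 0.10 and -0.04. Its nearest neighbours Zmat3, a p53 target that encodes an RNA-binding zinc finger protein, and Zfp639, a zinc finger gene, were both higher in 2151R (1.09 and 0.66, limma adjusted p 0.000187 and 0.000374). Zmat3 was 1.06, 0.45, 0.67 and 0.95 in 2151R, and 1.10 in T11, -0.98 and -0.72 in 2225L and -0.88 to 0.00 in 2208L. In 2225L against 2208L neither Zmat3 (-0.54, limma adjusted p 0.0863) nor Zfp639 (-0.32, limma adjusted p 0.122) was called.

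Around Nras (chromosome 3) 11 of 20 neighbours were above 0 for 2151R minus 2208L (median 0.25). Of the 20, 7 were called higher and 5 lower, where 26.1% and 22.7% of all genes were. The next gene after it, Ampd1, a muscle AMP deaminase gene, was not called (0.63 for 2151R minus 2208L, limma adjusted p 0.84). Whether strand was used in counting is not given in the sources used here, and reads at the ends of close genes may not be told apart.

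Hras and Lrrc56, which start back to back on the sequence printed above, were both highest in 2225L. Lrrc56 was 2.33 in CP and 2.76 in ROSEN, -0.15 to -0.60 in 2151R, -0.96 in T11 and 0.00 to 0.50 in 2208L. Its difference was 2.24 for 2225L minus 2208L (limma adjusted p 2.03e-06) and 2.96 for 2225L minus 2151R (limma adjusted p 1.18e-07). The model means stood in the same order in both genes, with T11 lowest; 2151R was below 2208L in Lrrc56 (-0.72, limma adjusted p 0.000997), where Hras was not called. The 20 neighbours of Hras (chromosome 7) had a median of -0.92 for 2151R minus 2208L and of 0.36 for 2225L minus 2208L. In the first, 1 was called higher and 12 lower, where 26.1% and 22.7% of all genes were. The nearest gene on the other side, the predicted gene Gm5905, was at -0.86 and 0.70, and at 0.27 in the second without the CP sample (limma adjusted p 0.374).

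Mycn went against its neighbours. In 2225L minus 2208L Mycn stood at 2.21. Around it on chromosome 12, 20 genes had a median of -0.96, with 0 called higher and 10 lower (15.6% and 17.3% of all genes). Its neighbour Ddx1, an RNA helicase gene, was at -0.71 (limma adjusted p 0.0142; without the CP sample -0.61, limma adjusted p 0.0970) and the predicted gene Gm4294 on the other side at -0.57 (limma adjusted p 0.865). Mycl (chromosome 4) exceeded its neighbours, whose median was 0.47 for 2151R minus 2208L. Of the 20, 10 were called higher and 2 lower, where 26.1% and 22.7% of all genes were. Mfsd2a, a lipid transporter gene (0.62), and Trit1, a tRNA modification enzyme gene (0.52), were not called there.

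Next to Myc (chromosome 15) lies Pvt1, a long non-coding RNA gene. Pvt1 was 0.46, 0.22, 0.10 and 0.29 in 2151R, 0.09 in T11, -1.65 (CP) and -0.60 (ROSEN) in 2225L and -1.95 to -1.03 in 2208L. It was higher in 2151R than in 2208L (1.61, limma adjusted p 5.03e-05), as Myc was. In 2225L the pair parted: the CP sample, highest of all in Myc, was lower in Pvt1 than the ROSEN sample by a difference of -1.05. The predicted gene Gm38563 on the other side was at -4.11 for 2151R minus 2208L. The median of the 20 neighbours of Myc was 0.32 in that comparison.

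The 20 neighbours of Braf (chromosome 6) had a median of -0.21 in 2225L minus 2208L, and of 0.88 in 2225L minus 2151R, where Braf was at -1.003. Of the flanking genes, Ndufb2, a subunit gene of respiratory complex I, was lower in 2151R than in 2208L (-1.41, limma adjusted p 0.00163) and Mrps33, a mitochondrial ribosome gene, was not called (-0.48, limma adjusted p 0.188). For Nf1 (chromosome 11) the median of the 20 neighbours was -0.28 in 2225L minus 2208L, with Wsb1, a ubiquitin ligase subunit gene, at -0.84 (limma adjusted p 0.0310; without the ROSEN sample -0.26, and lost without the high-muscle libraries too). Evi2, which GENCODE M21 places within Nf1 on the opposite strand, was higher in 2151R than in 2208L (1.65, limma adjusted p 0.00198). Nf1 was not called there (0.10). Where the 2 genes overlap, reads may not be told apart without strand.

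**Figure D3:**
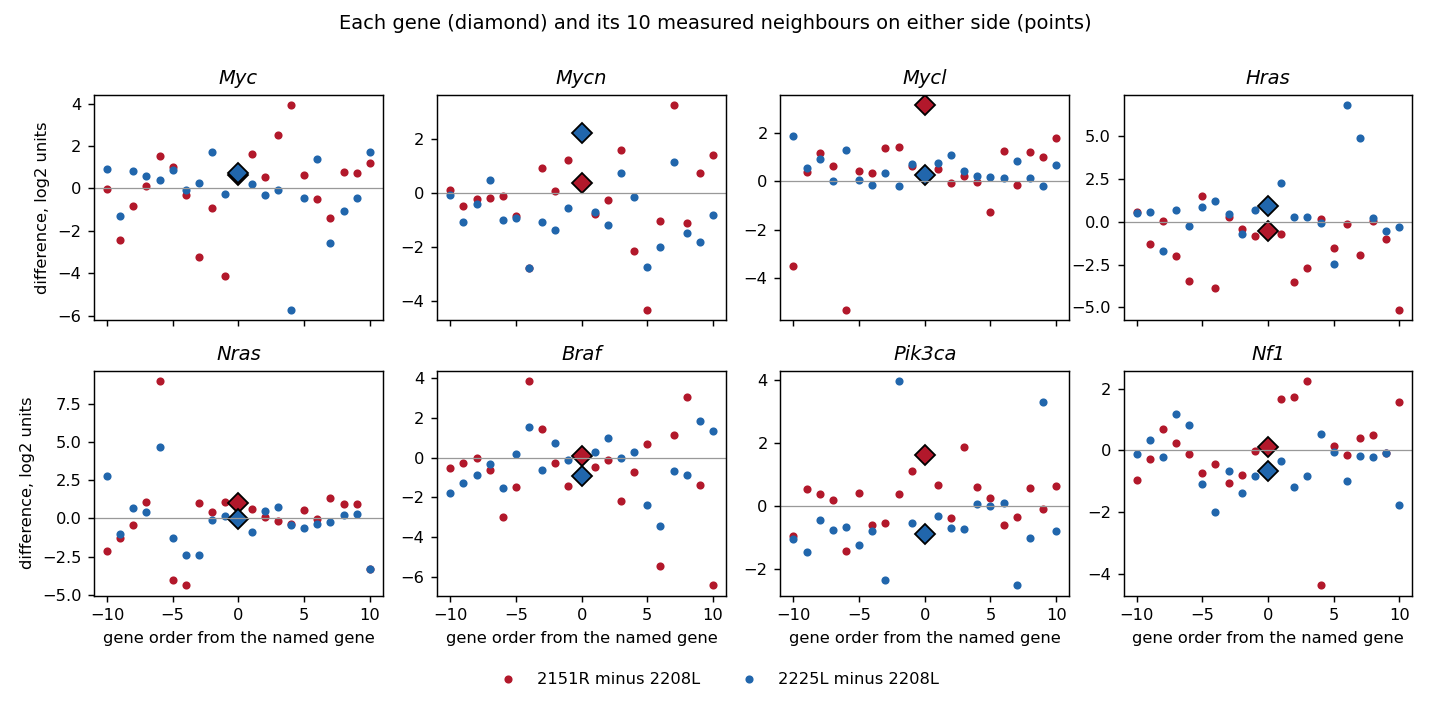
Difference in log2 units (vertical axis, a scale of its own in each panel) of each of the 8 genes (diamond) and of the 10 measured genes on either side (points), by gene order, for 2151R minus 2208L and 2225L minus 2208L. The diamond of Mycn stands at 2.21 above neighbours with a median of -0.96.

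Mycl was the 1 gene with an SD over the 15 samples above 1 (1.55), and the genes nearest to its pattern were sought among 14181 genes. By the root mean square difference over the 15 samples after each gene's mean was taken out, they were Abhd1 (0.46), Bcat1 (0.54) and Traf1 (0.55). Bcat1, which encodes a branched-chain aminotransferase, averaged 1.99 in 2151R, -1.40 in PBS and -0.21 in 3day nt samples of 2208L. Abhd1, an abhydrolase gene, averaged 2.21 in 2151R and -0.52 in 2225L, and Traf1, a TNF receptor adaptor gene, 1.92 and -0.53. This is a description of likeness over samples that share models.

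Other genes of these pathways, 118 in 10 lists, of which 116 are in the table, were described with the same fits. Between 2151R and 2208L, 38 were higher and 28 lower in 2151R, 56.9% of those measured, where 48.8% of all genes were called, and their median difference was 0.21 against 0.10 for all genes. Between 2225L and 2208L, 12 were higher and 30 lower (36.2%, against 32.9% of all genes), with a median of -0.19 against -0.04. Between 2225L and 2151R, 19 were higher and 39 lower (50% against 48.6%). Taken over both directions, these shares are near those of all genes. By direction the listed genes were split less evenly than all genes, towards higher in 2151R against 2208L and towards lower in 2225L in both other comparisons. Without the 3 libraries with high muscle markers, the counts were 32 and 23, 13 and 31, and 16 and 38 in the same order. The counts of single lists below are to be read beside the shares of all genes. Those were 26.1% higher and 22.7% lower for 2151R against 2208L, and 15.6% and 17.3% for 2225L against 2208L.

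Around Myc, 7 of 12 partners and rivals were called between 2151R and 2208L, 3 higher and 4 lower (26.1% and 22.7% of all genes). Mxd3 (1.28), a repressor that competes with Myc for Max, was higher in 2151R, and Zbtb17 (0.60), the Myc partner Miz1, was too. Mxd1 (-1.23), another such repressor, and Mlxip (-1.17), a related glucose sensor, were lower. Fbxw7, the ubiquitin ligase subunit that marks Myc for destruction, was lower in 2225L than in 2208L (-1.24, SE 0.17, limma adjusted p 0.00013). Both samples of 2225L were at -0.31 and -0.36 and the 8 of 2208L from 0.70 to 1.18. Fbxw7 was lower in 2151R than in 2208L too (-0.99, limma adjusted p 3.63e-05). Between 2225L and 2151R it was not called (-0.25, limma adjusted p 0.283). Against 2151R, 2225L had higher Mxd4 (1.501) and lower Mnt (-0.72), both repressors of the same network.

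Of 22 Myc target genes, 7 were higher and 3 lower in 2151R when set against 2208L (median 0.32, all genes 0.10). Odc1, the rate-limiting enzyme of polyamine synthesis, differed by 1.36 and Eif4e, the cap-binding translation factor, by 1.43. Ldha (-0.87), lactate dehydrogenase, and Nme1 (-1.003), a nucleoside diphosphate kinase, were lower, but Nme1 was not called (limma adjusted p from 0.0543 to 0.113) without any 1 of the 4 samples of 2151R, or without replicate 1, 6, 7 or 8 of 2208L. In 2225L against 2208L, 7 were higher and 0 lower (median 0.47, all genes -0.04), and at an unadjusted p under 0.05 the limma counts were 9 higher and 0 lower. Npm1, a ribosome assembly chaperone, was at 1.79 and 1.87 in 2225L, -0.36 to -0.02 in 2151R and -0.81 to 0.28 in 2208L, and rose against both (1.90 and 1.98). Odc1 was lower in 2225L than in 2151R (-1.53). Proliferation markers (6 genes) ran from 0.43 to 0.96 in 2151R and from -0.96 to -0.02 in 2208L, were 0.14 and -0.15 in 2225L, and their part was not tested.

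Of 5 other Ras family proteins, Mras was higher (0.58) and Rras2 lower (-0.80) in 2151R than in 2208L. In 2225L Mras was lower than in 2208L (-1.12) and than in 2151R (-1.70), while Rras2 was higher than in 2151R (1.06). Of 12 measured activators and adaptors, 4 rose and 1 fell in 2151R relative to 2208L (26.1% and 22.7% of all genes). Rasgrp3 (1.36) and Sos2 (0.89), which load Ras with GTP, were higher, and Gab1 (-1.14), a docking protein, was lower. Sos2 was not called without replicate 1 of 2151R (0.78, limma adjusted p 0.0521). Gab1 was higher in 2225L than in 2151R (1.35). The calls of 3 more genes of this list in 2225L were each lost without 1 library. Rasgrp2 was 2.93 in CP and 0.27 in ROSEN, with 2208L from -1.48 to 0.95, and its difference of 2.08 was 0.75 without CP (limma adjusted p 0.427) and 3.41 without ROSEN. Rasgrp1 was -1.14 and -2.72, with 2208L from -1.06 to 0.52, and its difference of -1.85 was -1.06 without ROSEN (limma adjusted p 0.128). Rasgrf2 was -4.09 and -0.80, with 2151R from 0.69 to 1.49, and its difference of -3.65 was -2.001 without CP (limma adjusted p 0.281).

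Of 12 Ras inhibitors, 6 were higher and 2 lower in 2151R when set against 2208L (median 0.47), where 26.1% and 22.7% of all genes were. Rasal1, a Ras GTPase-activating protein, was -3.59, -3.02, -3.83 and -3.70 in 2151R, -6.28 in T11, 0.00 and 1.78 in 2225L and 0.46 to 1.44 in 2208L. Every sample of 2151R and T11 lay below every sample of the other models, and the difference between 2151R and 2208L was -4.41 (SE 0.30, limma adjusted p 6.17e-08). Rasa3, of the same class, ran the other way, at -0.03 to 0.48 in 2151R, 0.40 in T11 and -2.67 to -1.79 in 2208L (2.44, limma adjusted p 5.28e-07), and was higher in 2225L as well (1.82). Spred3, a membrane inhibitor of the Ras pathway, was higher in 2151R (1.69) and lower in 2225L (-2.18; without ROSEN -1.70, limma adjusted p 0.107) than in 2208L. Dab2ip (-0.56), another GTPase-activating protein, was lower in 2151R, but not called without its replicate 2 or 3 (limma adjusted p 0.0521 and 0.0607).

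Of 7 measured Raf, MEK and ERK kinase genes, 1 was higher and 4 lower in 2151R when set against 2208L (median -0.55, all genes 0.10). Araf (-0.78), a relative of Braf, was lower and Mapk3 (0.60), the gene of ERK1, was higher. Ksr1, a scaffold of the cascade, was -0.13 in CP and -1.87 in ROSEN, with 2208L from -0.61 to 1.03. Its difference of -1.39 from 2208L was -0.51 without ROSEN (limma adjusted p 0.480), -2.26 without CP, and not called without the high-muscle libraries (-1.20).

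Of 16 genes that ERK activity is known to raise, 4 were higher and 8 lower in 2151R when set against 2208L (median -0.48). Fosl1, an AP-1 subunit, was 5.73, 5.32, 5.54 and 5.42 in 2151R and 3.58 in T11, against -3.06 to 0.00 in 2208L and -2.83 (CP) and -7.15 (ROSEN) in 2225L. It had the largest difference of any listed gene in this comparison (7.50, SE 0.75, limma adjusted p 2.80e-06). Dusp5 (1.60), an ERK phosphatase, was higher too. Ier3 (-3.40), an early response gene, and Phlda1 (-2.74) were lower, and Phlda1 was from -2.72 to -2.25 in 2151R and from 0.00 to 0.66 in 2208L. In 2225L against 2208L, 0 were higher and 8 lower (median -0.90), with unadjusted limma counts of 1 higher and 10 lower. Etv1, an ETS factor, fell furthest (-3.11), from 1.21 to 2.18 in 2208L to -2.29 and -0.47 in 2225L. Against 2151R, 2225L was higher in Phlda1 (3.18) and lower in Fosl1 (-10.49).

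Of 8 other PI3K subunit genes, 4 were higher and 3 lower in 2151R when set against 2208L, and 0 were higher and 6 lower in 2225L when set against 2208L (median -1.49, all genes -0.04, with unadjusted limma counts of 0 higher and 6 lower). The regulatory subunit genes Pik3r1 and Pik3r3 were lower in 2151R (-1.81 and -2.62), where Pik3ca was higher. Pik3r1 was also lower in 2225L than in 2208L (-1.46, limma adjusted p 0.00256), where Pik3ca was lower. Pik3r3 was -1.46 to -0.997 in 2151R, 0.56 in T11, -0.63 and -0.77 in 2225L and 0.76 to 1.76 in 2208L. Pik3cg (1.42) and Pik3r5 (1.10), a catalytic and a regulatory subunit best known from blood cells, were higher in 2151R. Pik3r5 was at -2.37 and -2.45 in 2225L, below 2208L (-2.08, SE 0.32, limma adjusted p 0.000331) and below 2151R (-3.18). Macrophage markers were highest in 2151R and T11 and lowest in 2225L, as given above, and their part in these 2 genes was not tested.

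Of 7 PI3K inhibitors, 3 were higher and 1 lower in 2151R relative to 2208L (26.1% and 22.7% of all genes). Inpp5d (0.92), a lipid phosphatase of blood cells, was higher, and Pik3ip1 (-1.64), which binds and restrains p110, was lower. Pik3ip1 was -1.94 to -1.67 in 2151R and 0.87 and 0.93 in 2225L (difference 2.69, SE 0.35, limma adjusted p 3.57e-05), above 2208L as well (1.05), a call lost without either sample of 2225L (1.08 and 1.02) and without the high-muscle libraries (0.93). Inpp4b, another lipid phosphatase, was lowest in 2225L (-2.30 against 2208L, -2.90 against 2151R).

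Of 15 Akt and mTOR genes, 5 rose and 1 fell in 2151R relative to 2208L (26.1% and 22.7% of all genes). Mtor (1.16), the kinase itself, and Rptor (1.05), its partner, were higher and Akt2 (-0.69; not called without the high-muscle libraries, -0.58) was lower, while the list's median was 0.05 and -0.004 with each sample centred on its median. In 2225L against 2208L, 1 was higher, Irs2 (0.86), an insulin receptor substrate, and 4 were lower. The call of Irs2 was lost without either sample of 2225L (0.96 and 0.76) and without replicate 6 of 2208L (0.84). Irs2 was above 2151R too (1.33).

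Within 2208L, 33 of the 116 listed genes were higher in PBS than in 3day nt samples and 11 lower (37.9%, against 34% of all genes). With quantile normalization the listed counts were 35 and 21, while the share of all genes is for the values as deposited. Of 15 Akt and mTOR genes, 9 were higher and 1 lower (median 0.65, all genes -0.05). Of 22 Myc target genes, 1 was higher and 6 lower (median -0.33). Among all genes, 17.4% were higher and 16.5% lower. Without replicates 6 and 8, none of the 116 was called by limma, with 20 at an unadjusted p under 0.05, and without replicate 8 alone 17 were called.

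**Figure D4:**
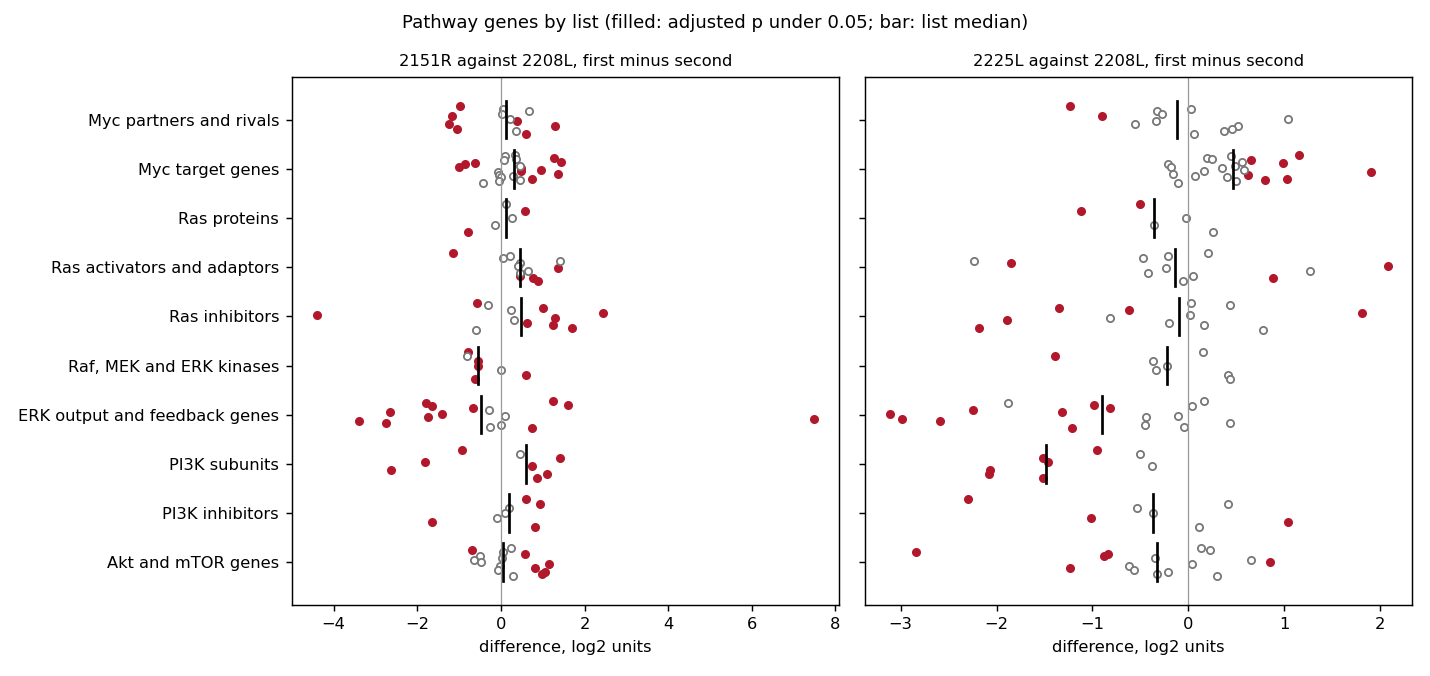
Difference in log2 units (horizontal axis) of each measured gene of the 10 pathway lists for 2151R against 2208L (left) and 2225L against 2208L (right), with filled points for an adjusted p under 0.05 and a bar at the list median. Fosl1 (7.50) and Rasal1 (-4.41) stand furthest out on the left, and the 8 PI3K subunit genes on the right have a median of -1.49.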

How the data were processed

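Poly(A) RNA from 15 samples of mouse mammary tumours was sequenced (TruSeq mRNA libraries, per the labels' protocols). The submitters' processing notes name STAR, Salmon and mm10, with no role, order or version. The authors deposited log2 values centred on each gene's median. The offset, the set centred on and the annotation are not given in the sources used here, and no counts were used, so depth is unknown and no counting interval can be given. Groups came from sample titles.

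The values were fitted as deposited with limma 3.58.1 (R 4.3.3, eBayes without trend), with 1 mean for each of 4 models over 15 samples, and separately for 7 samples of 2208L. Adjusted p-values are Benjamini-Hochberg over all 17271 genes, with a threshold of 0.05. No filter on low values was used, so all 8 genes were tested. The procedure was tested on simulated data drawn independently for each sample. Those data held no library ranges, no muscle signal and, for the models, no subsets of 2208L. The simulation therefore cannot show how the calls hold under these. P-values measure the spread between these samples.

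The 8 genes, the lists, the sequence motifs and the alternatives were chosen with earlier results of these data known. Genes named were the 8, the called genes with the largest difference in each direction of each list (2 for 2151R against 2208L, 1 for the other model comparisons), the nearest measured gene on each side, and the 3 most alike in pattern to a gene with SD above 1, leaving out genes with repeated values and predicted genes. Some genes that this rule names are not reported here. Of all genes, 93.7% were placed on the RefSeq order of GRCm38.p6. Alternatives were scaling, eBayes settings, an SD filter of 0.3, sample weights, subsets, the library prefix and leaving out each sample.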

Additional observations from a re-analysis of the deposited data

Results flagged for a closer look

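Single samples stood apart from the rest of their group by Dixon's criterion in 17 of 162 gene and group combinations. Chance gives about 1 in 20, or 8.1, for separate combinations. These were not separate, since PBS samples were tested alone and again within 2208L, and all genes share samples. The excess over 8.1 was not tested. Of the 17, 10 were replicate 5 of 2208L, the sample with the lowest median over all genes (-0.29). After each sample was centred on its median, 4 of the 17 remained apart.

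Among the 8 genes, Hras of replicate 3 in 2151R was 0.0082, with the others from -0.26 to -0.22. Nras of replicate 5 was -0.81, with the other PBS samples from -0.52 to -0.49, and Nf1 of replicate 5 was 0, with the others from 0.51 to 0.61.

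Among listed genes, replicate 5 of 2208L was low in Npm1 (-0.81, among PBS samples and among all 8), Odc1 (-0.35), Eif4e (-1.07), Rptor (-0.65), Rras2 (-0.30), Mlxip (0.59) and Pik3r3 (1.06). Replicate 2 of 2208L was low in Ldha (0.10) and high in Sos2 (0.30), and replicate 1 low in Irs2 (-1.80). In 2151R, replicate 3 was low in Irs2 (-1.99) and Mxd1 (-1.02), and replicate 1 high in Pik3cg (1.29).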

How the results depend on the processing

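No paired analysis was possible because no replicate number is given in any title. Of the values of the 8 genes under alternatives, 158 of 168 (2151R against 2208L), 127 of 160 (2225L against 2208L), 110 of 120 (2225L against 2151R) and 93 of 110 (within 2208L) kept direction and side of the threshold. Signs turned for Braf (quantile -0.0047, sample weights -0.020) and Nf1 (quantile -0.0032, without 2151R replicate 1 -0.012) in 2151R against 2208L. In 2225L against 2208L they turned for Nras (centred 0.0095, quantile 0.20, weights 0.061, without high-muscle samples 0.12, prefix as covariate 0.12, without 2225L replicate 2 0.13, without 2208L replicates 6, 7 or 8 0.048, 0.047 and 0.049) and Mycl (without 2225L replicate 2 -0.49). Myc turned for 2225L against 2151R without 2225L replicate 1 (-0.44) and within 2208L without replicate 5 (0.051). With samples titled NT, nt or PBS, 5466 genes and 42 listed genes were called for 2151R against 2208L (8434 and 66 in the fit reported). For 2225L against 2208L (5687, 42 listed, 5 of the 8), sample weights gave 2158, 15 and 0 by limma (3 of the 8 at an unadjusted p under 0.05); of the 8, quantile normalization and the 2 models alone each gave 2 and the prefix 3. For 2225L against 2151R (8398 and 58) weights gave 5252 and 34. Within 2208L (5864, 44 listed, 4 of the 8) weights gave 11692, 78 and 7, and leaving out the high-muscle samples 98, 0 and 0 by limma (20 listed and 3 of the 8 at an unadjusted p under 0.05). Leaving out 1 sample gave, in the same order of comparisons, 7033 to 8519, 4580 to 6048, 6611 to 8200 and 2379 to 6800 genes, 53 to 66, 24 to 43, 51 to 58 and 17 to 55 listed genes, and 3 to 5, 2 to 5, 4 to 7 and 2 to 6 of the 8. Leaving samples out lowers the number fitted; the cause of the other shifts was not tested. Scalings of T11 minus 2151R were chosen after seeing the data. Leaving out 1 sample gave 0.24 at most for Nf1 (2151R against 2208L), 0.98 at most for Mycl and -0.14 at least for Nras (2225L against 2208L), 0.61 at most for Myc (2225L against 2151R) and -0.19 at least for Myc within 2208L. Depth being unknown, its limits cannot be given.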
